A study of Mus musculus with 12 samples.

Results

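The 7 genes described here are known targets of the transcription factor NF-kB: Traf1, Birc3, Bcl3, Cd83, Icam1, Cflar and Sod2. They were found by symbol in a table of 50674 genes from mouse natural killer (NK) cells, each symbol matching 1 row, and all 7 were among the 17457 genes that passed the filter on low counts. The cells were expanded from spleen with IL-2, and polyadenylated RNA was sequenced from 4 groups of 3 libraries, all labelled strain C57BL/6. The groups were Mirc11-/- cells given NKG2D stimulation for 6 h, untreated Mirc11-/- cells, wild-type cells stimulated in the same way for 6 h, and untreated wild-type cells. Mirc11 names a cluster of 3 microRNA genes, Mir23a, Mir27a and Mir24-2, which the Mirc11-/- cells lack. The agent used to engage NKG2D, the age and sex of the mice, and whether animals were pooled are not given in the sources used here. The study's design text calls the replicates biological, but nothing says which libraries came from the same mouse, so p-values measure only the spread between these libraries.

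NF-kB dimers are held in the cytoplasm by IkB proteins, which are broken down when a receptor switches on the IKK kinases. The freed dimers bind kappaB sites in DNA and raise genes for survival, adhesion, costimulation and feedback inhibition. In NK cells, NKG2D, a receptor for stress ligands, and other activating receptors feed into this pathway, and the study asked how Mirc11 affects its output through TRAF6 and ubiquitin modifiers. Among the genes here, Bcl3 encodes an IkB-like nuclear co-regulator. Traf1, Birc3 (cIAP2) and Cflar (c-FLIP) encode adaptors and inhibitors of death-receptor signalling, Icam1 and Cd83 encode surface proteins, and Sod2 encodes the mitochondrial superoxide dismutase.

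Totals ranged from 15139281 to 25342991 counts per library. Mir27a had 0 counts in all 6 Mirc11-/- libraries, against 1, 0 and 4 counts in stimulated and 2, 3 and 3 counts in unstimulated wild-type cells, so no library went against its label. Mir24-2 had 1 count in all, in a stimulated wild-type library, and Mir23a had none. Polyadenylated RNA holds little mature microRNA, and these genes were not tested. Levels are given in CPM, counts scaled to the TMM-adjusted total of each library. The summed level of 12 NK markers was 4865 to 7493 CPM in stimulated and 12412 to 13460 CPM in unstimulated Mirc11-/- cells. It was 8391 to 9772 CPM in stimulated and 11483 to 13811 CPM in unstimulated wild-type cells, and no marker was at 0 in any group. Gzmb and Prf1 made up most of the sum. Of the 12, 2 rose and 7 fell with stimulation in Mirc11-/- cells (edgeR adjusted p under 0.05). In wild-type cells 4 rose and 7 fell, and the shares of all tested genes are given below. The 548 vomeronasal receptor genes, chemosensory genes of the nose that serve here as a gauge of background reads, summed to 49.1 to 85.4 CPM in stimulated and 14.6 to 17.0 CPM in unstimulated Mirc11-/- cells. They summed to 24.8 to 41.5 CPM in stimulated and 13.6 to 17.4 CPM in unstimulated wild-type cells. The highest sum was that of stimulated Mirc11-/- replicate 1, and the part of these reads in the results was not tested beyond the fits with that sum as a covariate that are given below.

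The promoters below are shown for the genes whose response to stimulation the results turn on. They run from 250 bases before to 50 bases after the annotated start and are RefSeq sequences on GRCm38.p6, which held an entry for 6 of the 7 genes and none for Cd83. Capitals mark matches, on either strand, to a kappaB core (GGG and CC with any 5 bases between) or to GGAAANNCC, a shorter form chosen after the Icam1 promoter had been read, and overlapping matches run together.
Bcl3, chr7:19822706-19823005, minus strand: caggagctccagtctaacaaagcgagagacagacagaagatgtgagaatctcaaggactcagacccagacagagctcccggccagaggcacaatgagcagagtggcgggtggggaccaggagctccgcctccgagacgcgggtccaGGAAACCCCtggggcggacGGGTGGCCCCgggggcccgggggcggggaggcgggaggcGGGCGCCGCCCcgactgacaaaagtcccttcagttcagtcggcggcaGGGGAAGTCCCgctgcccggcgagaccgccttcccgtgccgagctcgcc
Icam1, chr9:21015690-21015989, plus strand: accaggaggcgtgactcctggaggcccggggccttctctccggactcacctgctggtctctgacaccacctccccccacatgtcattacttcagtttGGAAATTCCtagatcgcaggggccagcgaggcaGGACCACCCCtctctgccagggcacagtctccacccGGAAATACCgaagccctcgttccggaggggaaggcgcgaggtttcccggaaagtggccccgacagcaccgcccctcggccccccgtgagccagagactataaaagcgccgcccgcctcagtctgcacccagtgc
Traf1, chr2:34961723-34962022, minus strand: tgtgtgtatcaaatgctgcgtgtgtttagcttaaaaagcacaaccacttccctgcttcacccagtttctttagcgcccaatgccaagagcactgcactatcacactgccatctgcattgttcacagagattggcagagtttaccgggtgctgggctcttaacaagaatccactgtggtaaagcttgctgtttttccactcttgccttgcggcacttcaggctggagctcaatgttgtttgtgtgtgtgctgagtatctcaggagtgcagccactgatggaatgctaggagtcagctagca
Sod2, chr17:13007589-13007888, plus strand: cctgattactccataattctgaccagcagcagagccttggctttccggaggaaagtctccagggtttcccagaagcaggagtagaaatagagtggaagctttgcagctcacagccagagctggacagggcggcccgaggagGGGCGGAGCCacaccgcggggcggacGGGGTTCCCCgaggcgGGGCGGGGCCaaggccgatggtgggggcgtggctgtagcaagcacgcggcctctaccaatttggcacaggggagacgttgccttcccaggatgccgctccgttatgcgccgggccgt
The Bcl3 promoter held GGGGAAGTCCC at its start, which includes a match to the published kappaB consensus, and the Icam1 promoter held GGAAATTCC 153 bases and GGAAATACC 84 bases before the start. No match was found in the 300 bases at Traf1, while Sod2 had 3 stretches that match the core, of which GGGGTTCCCC also met the consensus. The core was found in 50.79% of 32851 promoters of the same length, the shorter form in 5.82% and the kappaB consensus in 4.51%. Among the 6 promoters at hand, 5 held the core, 2 the shorter form and 2 the consensus. A match is a description of these letters and not evidence of binding, and no relation between matches and response was tested.

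In Mirc11-/- cells, stimulation came with higher levels of Cd83, Traf1, Icam1 and Bcl3 and lower levels of Sod2 and Cflar, and Birc3 had an estimate near 0. In wild-type cells Cd83, Icam1, Traf1, Bcl3 and Birc3 rose, Sod2 fell, and Cflar had an estimate near 0. Cd83, a surface protein of activated lymphocytes and dendritic cells, was at or near 0 without stimulation and reached a low level with it. Traf1, Icam1 and Bcl3 rose between 1.43-fold and 2.55-fold in Mirc11-/- and between 1.76-fold and 2.62-fold in wild-type cells. A gene is called here when its adjusted p (edgeR's quasi-likelihood test, two-sided, Benjamini-Hochberg over the 17457 genes) is under 0.05. In Mirc11-/- cells 6 of the 7 genes were called, 4 higher and 2 lower, where 45.6% of all tested genes were called, 23.5% higher and 22.1% lower. In wild-type cells 6 of the 7 were called, 5 higher and 1 lower, where 31.8% of all tested genes were called, 16.1% higher and 15.7% lower. The median log2 fold change of the 7 genes was 0.52 in Mirc11-/- and 0.82 in wild-type cells, beside medians of 0.03 and 0.02 over all tested genes in the same order of genotype. In Mirc11-/- cells 4 genes were higher and 3 lower in every stimulated than in every unstimulated library, where 27.9% and 26.2% of all tested genes were. In wild-type cells 5 were higher and 1 was lower in this way, where 24.9% and 24.1% of all tested genes were.

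**Figure D1:**
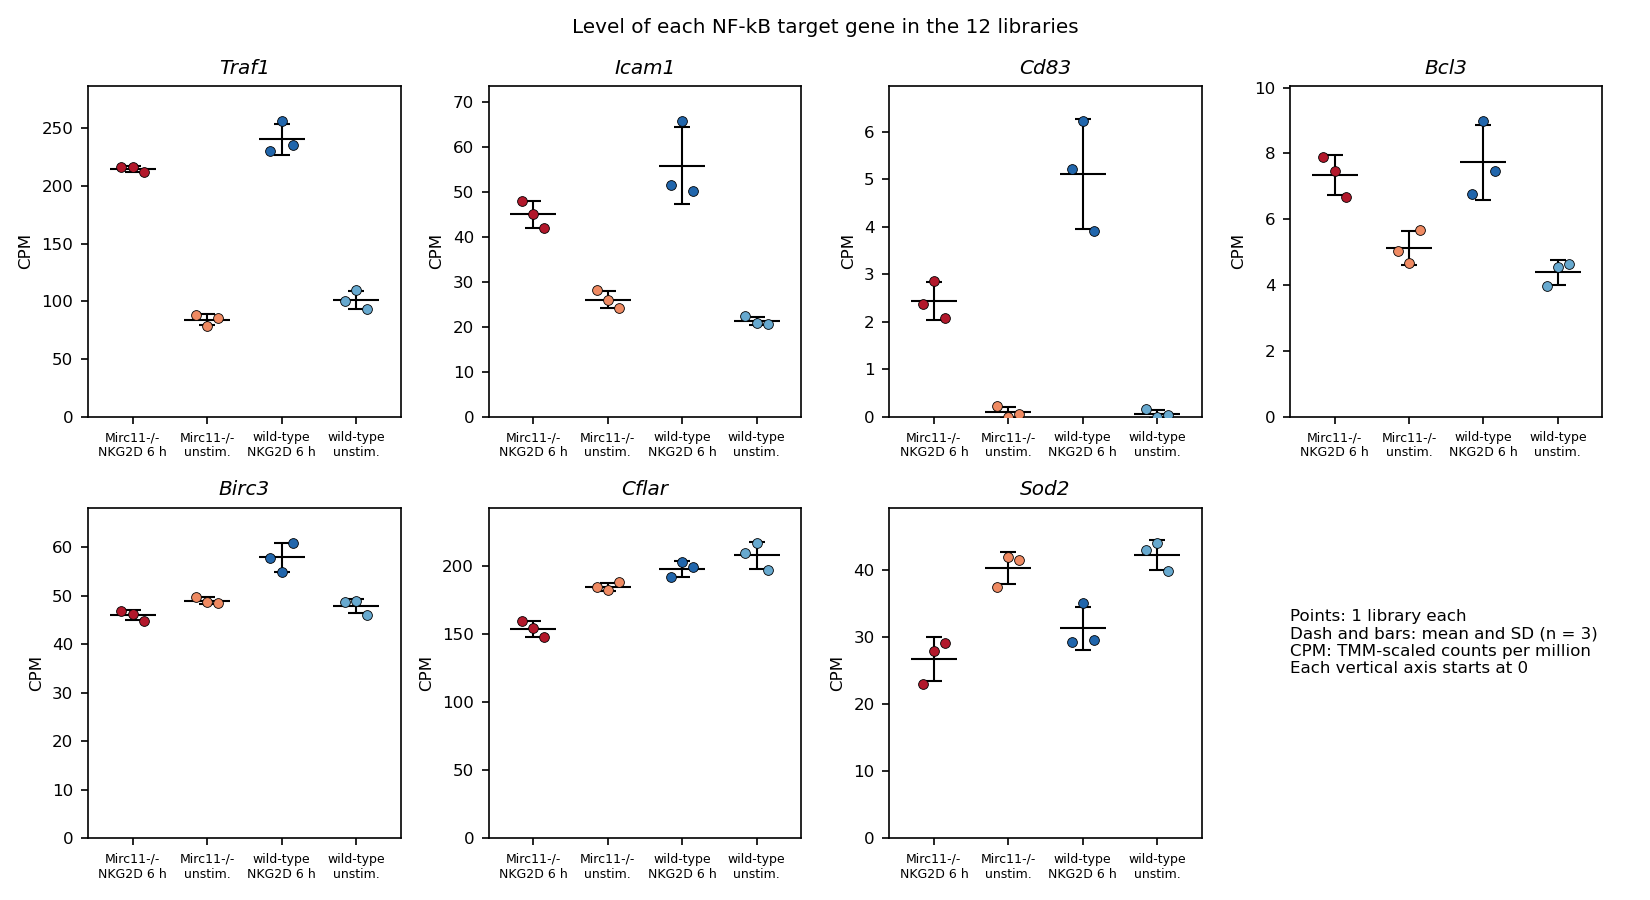
Level of each gene in the 12 libraries, in CPM scaled by the TMM library total, on axes that start at 0; points are libraries, and the dash and bars are the mean and SD of 3. Traf1, Icam1, Cd83 and Bcl3 are higher in every stimulated library than in every unstimulated library of the same genotype, and Sod2 is lower.

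Bcl3 (ENSMUSG00000053175, chr7:19808462-19822770, minus strand, GRCm38) had 7.88, 7.46 and 6.68 CPM in stimulated and 5.02, 4.67 and 5.68 CPM in unstimulated Mirc11-/- cells. In wild-type cells it had 6.75, 8.97 and 7.47 CPM with stimulation and 3.96, 4.56 and 4.65 CPM without. All stimulated libraries lay above all unstimulated ones, and the stimulated genotypes overlapped. Bcl3, which joins NF-kB p50 or p52 dimers in the nucleus, rose by 0.52 log2 ± 0.152 (SE; adjusted p = 0.013) in Mirc11-/- cells and by 0.82 ± 0.149 (adjusted p = 0.00101) in wild-type cells, both from edgeR's fit. The rise in Mirc11-/- cells was not called without unstimulated Mirc11-/- replicate 2 (0.46 log2, adjusted p = 0.0514), with no filter (0.42, adjusted p = 0.0927) or with the vomeronasal sum as a covariate (0.68, adjusted p = 0.385). Its adjusted p ran from 0.00661 to 0.385 over all alternatives. A gene model on the opposite strand, Gm16175, overlaps 6.51% of the Bcl3 exon bases, and whether the counting used strand is not given in the sources used here.

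Traf1 (ENSMUSG00000026875, chr2:34941750-34961772, minus strand) encodes an adaptor that binds TNF receptor family tails together with TRAF2 and the cIAP proteins. It had 216, 216 and 212 CPM in stimulated and 88.5, 78.8 and 85.4 CPM in unstimulated Mirc11-/- cells. In wild-type cells the values were 231, 256 and 235 CPM with stimulation, against 100.1, 109.6 and 93.7 CPM without. The groups did not overlap in either genotype. Traf1 rose 2.55-fold in Mirc11-/- cells (1.35 log2 ± 0.0847 SE, edgeR adjusted p = 9.39e-08) and 2.38-fold in wild-type cells (1.25 ± 0.0841, adjusted p = 3.18e-07). Both calls held under every alternative run, with the adjusted p reaching at most 0.00219 in Mirc11-/- and 1.61e-05 in wild-type cells.

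Birc3 (ENSMUSG00000032000, chr9:7848699-7873186, minus strand) encodes a ubiquitin ligase of the inhibitor-of-apoptosis family that works with TRAF proteins. Its levels were 46.8, 46.3 and 44.9 CPM in stimulated and 49.8, 48.6 and 48.4 CPM in unstimulated Mirc11-/- cells. Wild-type cells had 57.8, 54.9 and 60.9 CPM with stimulation and 48.6, 48.8 and 46.1 CPM without. The 3 stimulated wild-type libraries were the highest of the 12, and the other 9 lay between 44.9 and 49.8 CPM. In Mirc11-/- cells the estimate was -0.09 log2 ± 0.07 (SE, edgeR adjusted p = 0.31, 95% interval -0.24 to 0.06). In wild-type cells Birc3 rose 1.21-fold (0.27 ± 0.0693, adjusted p = 0.00838, interval 0.13 to 0.42). The wild-type rise was not called without a filter on low counts (0.24 log2, adjusted p = 0.21), with no composition factor (0.21, adjusted p = 0.05) or with the vomeronasal sum as a covariate (0.30, adjusted p = 0.0823). Its adjusted p ran from 0.00154 to 0.21 over all alternatives.

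Cflar (ENSMUSG00000026031, chr1:58711508-58758884, plus strand) encodes c-FLIP, which blocks caspase-8 at death receptors. It had 160, 155 and 148 CPM in stimulated and 185, 182 and 188 CPM in unstimulated Mirc11-/- cells. In wild-type cells the values were 192, 204 and 199 CPM with stimulation and 210, 217 and 197 CPM without. The 2 Mirc11-/- groups did not overlap, whereas the 2 wild-type groups did. Cflar fell by 0.26 log2 ± 0.0740 (SE, edgeR adjusted p = 0.0104) in Mirc11-/- cells, to 0.833 of the unstimulated level. In wild-type cells the estimate was -0.07 ± 0.0737 (adjusted p = 0.508, 95% interval -0.23 to 0.09). The fall in Mirc11-/- cells was not called with the vomeronasal covariate (-0.17 log2, adjusted p = 0.666; range over all alternatives 0.000138 to 0.666).

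Icam1 (ENSMUSG00000037405, chr9:21015985-21028817, plus strand) encodes the adhesion ligand of the integrin LFA-1. Stimulated Mirc11-/- cells had 48.0, 45.2 and 42.0 CPM, against 28.1, 26.0 and 24.2 CPM in unstimulated ones. Stimulated wild-type cells had 51.7, 65.8 and 50.3 CPM, against 22.4, 20.9 and 20.6 CPM in unstimulated ones. The 4 groups did not overlap: stimulated wild-type was highest, stimulated Mirc11-/- next, then unstimulated Mirc11-/- and unstimulated wild-type. Icam1 rose 1.73-fold in Mirc11-/- cells (0.79 log2 ± 0.107 SE, edgeR adjusted p = 6.51e-05) and 2.62-fold in wild-type cells (1.39 ± 0.107, adjusted p = 9.14e-07). The Mirc11-/- rise was not called with the vomeronasal covariate (0.89 log2, adjusted p = 0.114; range over all alternatives 2.66e-09 to 0.114). The model Gm47079 overlaps 11.72% of the Icam1 exon bases on the opposite strand.

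Cd83 (ENSMUSG00000015396, chr13:43784775-43803132, plus strand) had 41, 49 and 37 counts in stimulated and 4, 0 and 1 counts in unstimulated Mirc11-/- cells. Wild-type cells had 112, 122 and 77 counts with stimulation and 4, 0 and 1 counts without. Unstimulated cells of both genotypes were near the limit of detection, since 3 counts, the limit that a count of 0 allows, correspond to 0.118 to 0.189 CPM in these 6 libraries. In CPM, the stimulated libraries had 2.38, 2.85 and 2.08 in Mirc11-/- and 5.22, 6.22 and 3.91 in wild-type cells. Over summed counts corrected for library size, the ratio of stimulated to unstimulated cells was 24.8 (95% exact interval 10.4 to 77.8, counting error only) in Mirc11-/- cells and 70.2 (29.8 to 218) in wild-type cells. The fitted rise was 4.55 log2 ± 0.572 (SE, edgeR adjusted p = 3.6e-05) in Mirc11-/- and 6.02 ± 0.534 (adjusted p = 2.87e-06) in wild-type cells, called under every alternative run. Its size rests on the few counts of unstimulated cells: without unstimulated Mirc11-/- replicate 1 the rise in Mirc11-/- cells was 6.07, and without unstimulated wild-type replicate 1 that in wild-type cells was 7.43 log2. For scale, the mean vomeronasal receptor gene had 0.118 CPM in stimulated and 0.0288 CPM in unstimulated Mirc11-/- cells, and 0.0563 CPM in stimulated and 0.0275 CPM in unstimulated wild-type cells. The highest single vomeronasal gene reached 18.5 CPM in stimulated and 9.585 CPM in unstimulated Mirc11-/- cells. In wild-type cells it reached 10.1 CPM with and 8.97 CPM without stimulation. Of the 548 genes, 7 averaged above 1 CPM in stimulated and 2 in unstimulated Mirc11-/- cells, and 3 and 2 in wild-type cells.

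Cd83 is also a marker of mature dendritic cells, so the dendritic list is given beside it. Its 9 markers summed to 162 to 198 CPM in stimulated and 191 to 207 CPM in unstimulated Mirc11-/- cells, and to 91.6 to 135 CPM in stimulated and 77.8 to 132 CPM in unstimulated wild-type cells. Of 6 tested markers, 4 were called higher in stimulated than unstimulated Mirc11-/- cells and 2 in the same comparison of wild-type cells, led in both by Ccr7 and Zbtb46. Cd209a was at 0 in every group but stimulated Mirc11-/- cells, and Clec9a was at 0 in unstimulated wild-type cells. Itgax, which NK cells also express, made up most of the sum, with means of 148 CPM in stimulated Mirc11-/- and 76.4 CPM in stimulated wild-type cells. It was called higher in the former (0.95 log2, edgeR adjusted p = 0.0437), the 1 call among the 6 tested markers between these groups. Xcr1 averaged 6.18 and 3.90 CPM and Siglech 1.27 and 0.749 CPM in the same order, not called. Ccr7 averaged 2.56 and 2.88 CPM, Zbtb46 19.3 and 21.6 CPM and H2-Ab1 1.06 and 1.54 CPM in stimulated Mirc11-/- and stimulated wild-type cells, none of them called between these groups. B cell markers summed to 103 to 115 CPM in stimulated and 64.6 to 73.6 CPM in unstimulated Mirc11-/- cells, and to 106 to 129 CPM in stimulated and 57.5 to 72.1 CPM in unstimulated wild-type cells. The part of other cell types in these results was not tested, and in bulk RNA fewer cells of a type and less RNA per cell cannot be told apart.

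Sod2 (ENSMUSG00000006818, chr17:13006846-13040063, plus strand) had 22.95, 27.96 and 29.2 CPM in stimulated and 37.5, 41.9 and 41.5 CPM in unstimulated Mirc11-/- cells. Wild-type cells had 29.2, 35.0 and 29.6 CPM with stimulation and 42.9, 44.0 and 39.8 CPM without. Stimulated libraries lay below unstimulated ones without overlap in both genotypes, against the direction of Icam1, Traf1 and Bcl3. Sod2 fell by 0.59 log2 ± 0.104 (SE, edgeR adjusted p = 0.000456) in Mirc11-/- cells and by 0.43 ± 0.102 (adjusted p = 0.00556) in wild-type cells. With the vomeronasal sum as a covariate the estimates were -0.08 (adjusted p = 0.893) and -0.17 (adjusted p = 0.45) in the same order, and the adjusted p ran from 5.21e-06 to 0.893 in Mirc11-/- and from 0.000829 to 0.45 in wild-type cells over all alternatives. Of the 31-base words in Sod2 transcripts, 26.73% also occur in transcripts of other genes, the highest share of the 7. How the division of shared reads affects its estimated counts was not tested.

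**Figure D2:**
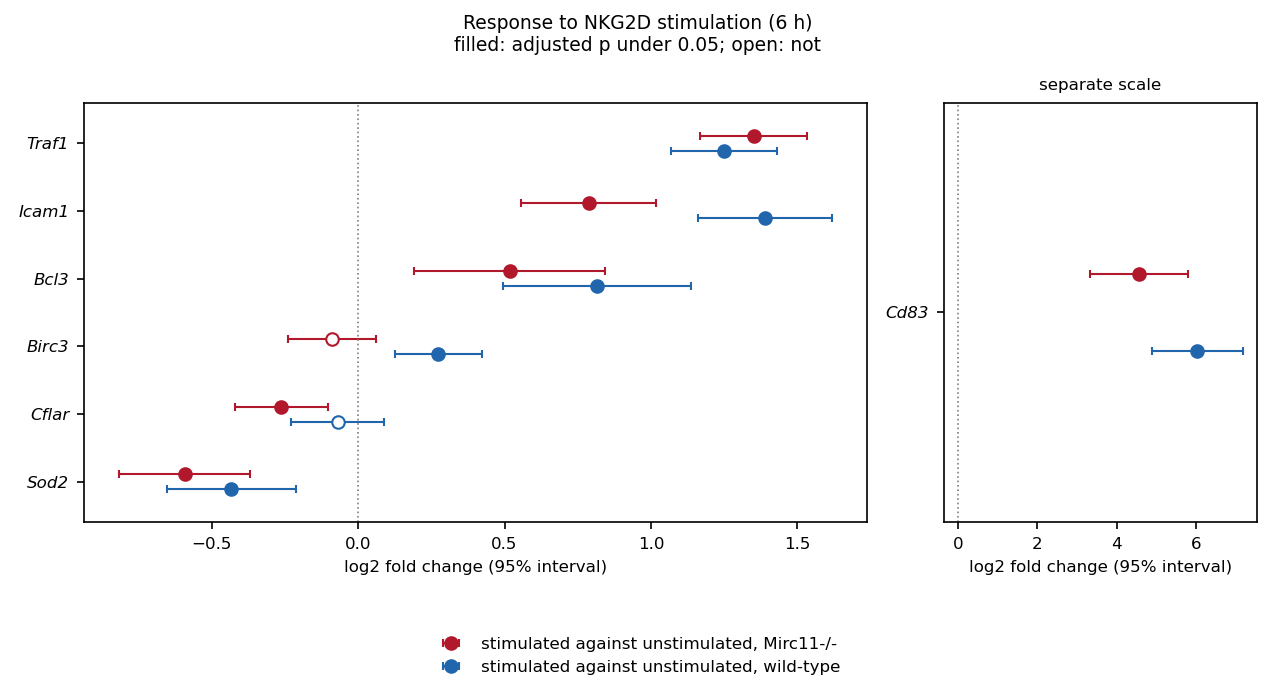
Log2 fold change of stimulated against unstimulated cells, in Mirc11-/- and wild-type cells, with 95% intervals; filled points have an adjusted p under 0.05, and Cd83 has its own scale. Icam1 stands at 0.79 in Mirc11-/- and 1.39 in wild-type cells, and Birc3 at -0.09 and 0.27, while Traf1 stands at 1.35 and 1.25.

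Whether the response differed between genotypes was tested as the difference of the 2 responses, Mirc11-/- minus wild-type. No gene of the 7 was called by edgeR, DESeq2 or limma voom, and 2 of the 7, Icam1 and Birc3, had an unadjusted p under 0.05 in edgeR. Over all tested genes, 0.0115% were called in this comparison, namely 2 genes, and 1858 had an unadjusted p under 0.05. The response of Icam1 was smaller in Mirc11-/- cells by an estimate of -0.60 log2 ± 0.150 (SE, unadjusted p = 0.00129, edgeR adjusted p = 0.32, 95% interval -0.92 to -0.28). That of Birc3 differed by -0.36 ± 0.0984 (unadjusted p = 0.0024, adjusted p = 0.366, interval -0.58 to -0.15). Over all alternatives the adjusted p ran from 0.0791 to 1 for Icam1 and from 0.0974 to 1 for Birc3. Traf1 had an estimate of 0.10 ± 0.118 (adjusted p = 0.72, interval -0.15 to 0.35), and Cd83 one of -1.47 ± 1.07 (adjusted p = 0.574, interval -3.77 to 0.83), which the few counts of unstimulated cells leave wide. The estimates of Bcl3 (-0.30), Cflar (-0.19) and Sod2 (-0.16) had intervals that included 0. The estimate was below 0 for 6 of the 7 genes, where 52.4% of all tested genes had an estimate below 0.

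In stimulated cells, all 7 genes had lower estimates in Mirc11-/- than in wild-type cells, and Birc3 and Cflar were called. Birc3 averaged 46.0 ± 0.982 CPM in stimulated Mirc11-/- and 57.9 ± 2.95 CPM in stimulated wild-type cells (SD, n = 3 each), a log2 difference of -0.33 ± 0.0696 (SE, edgeR adjusted p = 0.0136). Cflar averaged 154 ± 5.88 CPM in stimulated Mirc11-/- and 198 ± 5.87 CPM in stimulated wild-type cells, a difference of -0.36 ± 0.0740 (adjusted p = 0.0122). The 2 calls of 7, both lower, stand beside 9.02% of all tested genes called, 3.89% higher and 5.13% lower. Cd83 averaged 2.44 ± 0.392 CPM in stimulated Mirc11-/- and 5.12 ± 1.16 CPM in stimulated wild-type cells, and the log2 difference of -1.07 ± 0.347 missed the threshold (edgeR adjusted p = 0.0653). Its summed counts gave a ratio of 0.475 (95% exact interval 0.384 to 0.586, counting error only). Icam1 averaged 45.1 ± 2.99 and 55.9 ± 8.55 CPM in stimulated Mirc11-/- and wild-type cells, and its difference of -0.31 ± 0.104 also missed the threshold (adjusted p = 0.0709). Cd83 and Icam1 were called by DESeq2 (adjusted p = 0.0112 and 0.0466), and Cd83 by limma voom (0.0314).

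The 3 Mirc11-/- values lay below the 3 wild-type values for 6 of the 7 genes in stimulated cells, the exception being Bcl3, where 16.8% of all tested genes did so and 15.8% lay higher in this way. The median difference of the 7 genes was -0.31, beside 0.02 over all tested genes, and 47.6% of all tested genes had an estimate below 0. Traf1 differed by -0.16 (adjusted p = 0.199), Sod2 by -0.23 (0.157) and Bcl3 by -0.07 (0.758), none of them called by edgeR. The Birc3 call was lost without stimulated wild-type replicate 3 (edgeR adjusted p = 0.0672) and the Cflar call without stimulated wild-type replicate 2 (0.0561). When only the 6 stimulated libraries were fitted, the differences were again -0.33 for Birc3 and -0.36 for Cflar, but neither was called (adjusted p = 0.102 and 0.107). With the vomeronasal covariate they were -0.31 and -0.31, not called. Over all alternatives the adjusted p ran from 0.000287 to 0.818 for Birc3 and from 4.74e-07 to 0.818 for Cflar, the highest values coming with the vomeronasal covariate. Both stayed past the threshold without stimulated Mirc11-/- replicate 1, the library with the most vomeronasal reads.

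In unstimulated cells, no gene of the 7 was called between genotypes by edgeR or limma voom, while DESeq2 called Traf1 (adjusted p = 0.0489), and 3 of the 7 had an unadjusted p under 0.05 in edgeR. Of the 17457 tested genes, 1.11% were called, 0.309% higher and 0.796% lower, and 1607 had an unadjusted p under 0.05. Traf1 averaged 84.2 ± 4.97 CPM in unstimulated Mirc11-/- and 101.2 ± 7.99 CPM in unstimulated wild-type cells, without overlap (-0.26 log2 ± 0.0836 SE, edgeR adjusted p = 0.218). Icam1 averaged 26.1 ± 1.98 CPM in unstimulated Mirc11-/- and 21.3 ± 0.965 CPM in unstimulated wild-type cells, also without overlap (0.29 ± 0.108, adjusted p = 0.338). In this comparison Icam1 and Bcl3 were higher and Traf1 and Cflar lower in every Mirc11-/- library, where 8.87% of all tested genes were higher and 8.91% lower in this way. The estimate for Icam1 was above 0 in unstimulated and below 0 in stimulated cells, and neither was called. Cflar differed by -0.17 (adjusted p = 0.503), and Bcl3 by 0.22 (0.782). Birc3, Sod2 and Cd83 overlapped between the unstimulated genotypes, with 48.9 ± 0.727 against 47.9 ± 1.52 CPM for Birc3, in Mirc11-/- and wild-type cells. The comparisons share groups of libraries, so their values are given side by side and no likeness between them is counted as a result.

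**Figure D3:**
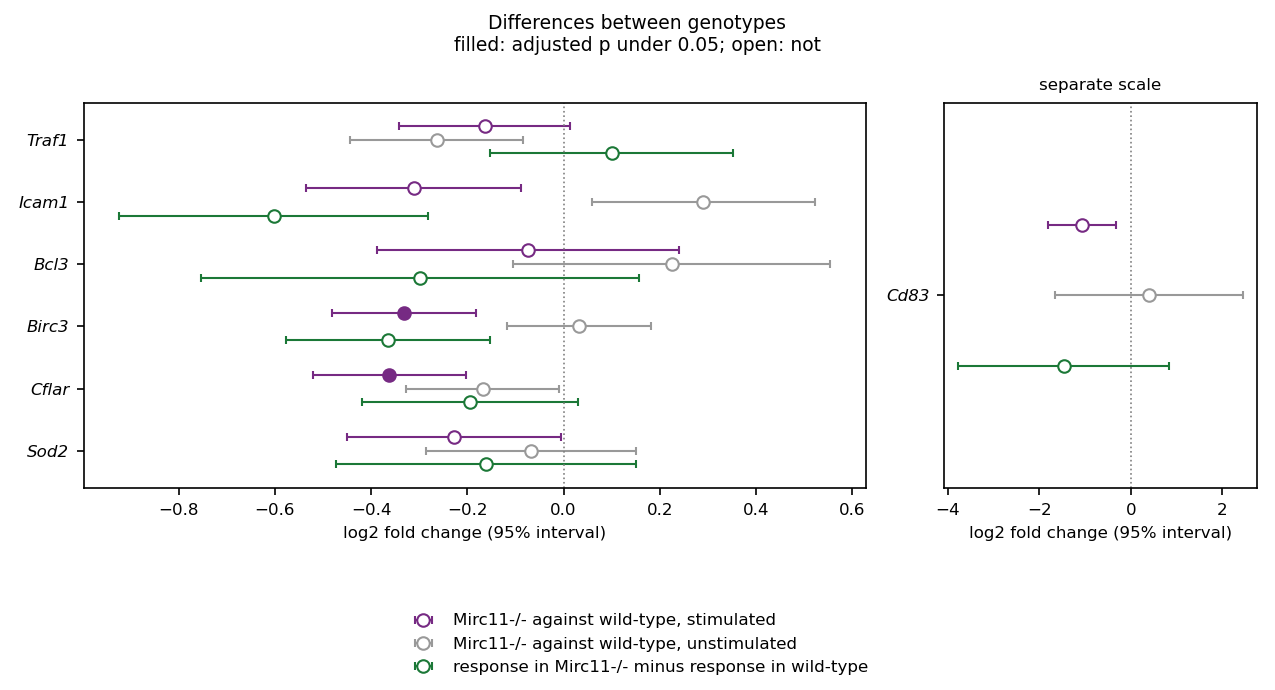
Log2 difference between Mirc11-/- and wild-type cells, stimulated and unstimulated, and the difference between their responses, with 95% intervals; filled points have an adjusted p under 0.05, and Cd83 has its own scale. The filled points are Birc3 at -0.33 and Cflar at -0.36 in stimulated cells.

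Per kilobase of the principal transcript, the order of mean levels changed with stimulation. In stimulated Mirc11-/- cells Traf1 stood first at 62.5 ± 0.747 CPM per kb (SD, n = 3), followed by Cflar at 23.5 ± 0.895, Icam1 at 17.8 ± 1.18, Birc3 at 17.2 ± 0.368, Sod2 at 4.55 ± 0.561, Bcl3 at 3.97 ± 0.329 and Cd83 at 0.984 ± 0.158. In unstimulated Mirc11-/- cells Cflar stood first at 28.2 ± 0.448 CPM per kb, then Traf1 at 24.5 ± 1.45, Birc3 at 18.4 ± 0.273, Icam1 at 10.3 ± 0.782, Sod2 at 6.87 ± 0.415 and Bcl3 at 2.77 ± 0.278, with Cd83 close to 0. The order of the 7 in wild-type cells was that of Mirc11-/- cells given the same treatment, with Traf1 at 70.0 ± 3.92 and Cflar at 30.2 ± 0.893 CPM per kb in stimulated cells. Unstimulated wild-type cells had Cflar at 31.7 ± 1.53 and Traf1 at 29.4 ± 2.33 CPM per kb. Icam1 and Birc3 were within their spread in stimulated cells of both genotypes, as were Cflar and Traf1 in unstimulated wild-type cells. Per kilobase of all exons together, Birc3 (9.77 ± 0.145) and Traf1 (9.55 ± 0.564) changed places in unstimulated Mirc11-/- cells, and so did Bcl3 (2.97 ± 0.246) and Sod2 (2.67 ± 0.329) in stimulated Mirc11-/- cells, so those orders depend on the transcript length used.

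The rest of the pathway is described over 9 lists drawn up with earlier results of these data known. The counts of each list stand beside 23.5% of all tested genes called higher and 22.1% lower in stimulated Mirc11-/- cells, and 16.1% higher and 15.7% lower in stimulated wild-type cells. Of the 5 NF-kB subunits, 4 rose in each genotype. Relb, which with p52 forms the alternative-pathway dimer, rose by 1.33 log2 ± 0.110 in Mirc11-/- and 1.46 ± 0.108 in wild-type cells (SE, edgeR adjusted p = 9.82e-07 and 6.66e-07). Nfkb2, the p52 precursor, rose by 1.09 and 1.37, Rel by 0.83 and 0.91, and Nfkb1 by 0.26 and 0.36, in Mirc11-/- and wild-type cells. Rela, encoding p65, had estimates of 0.01 and 0.18 (adjusted p = 0.93 and 0.0681). Of 5 genes of the IkB family, not all of them classical inhibitors, Nfkbia, Nfkbie and Nfkbid rose and Nfkbiz fell in each genotype. Nfkbia, the classical inhibitor IkB-alpha, rose by 0.67 ± 0.115 in Mirc11-/- and 1.42 ± 0.115 in wild-type cells and was lower in stimulated Mirc11-/- than in stimulated wild-type cells by -0.55 log2 ± 0.113 (edgeR adjusted p = 0.0122). Nfkbiz fell by 1.16 in Mirc11-/- and by 0.57 in wild-type cells on the log2 scale.

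Among 14 kinases and adaptors that act upstream of IkB, 4 rose and 3 fell in Mirc11-/- cells, and 5 rose and 2 fell in wild-type cells. The 7 calls of 14 in Mirc11-/- cells are near the 45.6% of all tested genes called there. Ikbke rose by 1.22 log2 in Mirc11-/- and 1.27 in wild-type cells, Tab1 by 0.78 and 0.97, and Malt1, the paracaspase that joins BCL10, by 0.65 and 0.75. Of 24 other NF-kB targets tested, 10 rose and 5 fell in Mirc11-/- cells, and 11 rose and 4 fell in wild-type cells. Gadd45b, a stress-response gene, rose by 3.29 ± 0.181 in Mirc11-/- and 2.92 ± 0.169 in wild-type cells, and Stat5a by 1.53 and 1.60. The ubiquitin-editing feedback gene Tnfaip3 (A20) rose by 1.32 and 1.19 and its partner Tnip1 by 0.90 and 0.81, in Mirc11-/- and wild-type cells. The survival genes Bcl2l1 and Ier3 were among those that fell. Bcl2l1 fell by 1.296 log2 in Mirc11-/- and by 0.74 in wild-type cells, and Ier3 fell by 1.54 in Mirc11-/- and by 0.65 in wild-type cells. In stimulated cells 4 of the 24 were lower in Mirc11-/- than in wild-type cells, namely Ier3 (-1.39 log2), Bcl2l1 (-0.77), Pim1 (-0.60) and Tnip1 (-0.35). None was higher, beside 5.13% of all tested genes lower and 3.89% higher. Tnip1 was also called lower in unstimulated Mirc11-/- than in unstimulated wild-type cells (-0.43 log2, edgeR adjusted p = 0.0233). It was the 1 call of the 24 there, beside 0.796% of all tested genes lower and 0.309% higher.

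Relatives of the described genes were called in both directions. Over all tested genes, 45.6% were called in Mirc11-/- and 31.8% in wild-type cells. The TRAF counts in both genotypes and the death-receptor counts in Mirc11-/- cells are near these shares. Of 6 other TRAF genes, 2 rose and 1 fell in Mirc11-/- cells and 2 rose in wild-type cells, with Traf2, the partner of TRAF1, rising by 0.64 log2 ± 0.0875 in Mirc11-/- and 0.75 ± 0.0866 in wild-type cells (SE, edgeR). Of 6 other genes of the inhibitor-of-apoptosis family, 1 rose and 1 fell in Mirc11-/- cells and 1 rose in wild-type cells. The rest were not called. Birc2 (cIAP1), the closest relative of Birc3, rose by 1.05 ± 0.104 in Mirc11-/- and 1.02 ± 0.104 in wild-type cells. Birc5 (survivin), best known for its part in mitosis, fell by 0.62 in Mirc11-/- cells. Of 8 genes of the death-receptor complex where c-FLIP acts, 1 rose and 3 fell in Mirc11-/- cells, and 2 rose and 3 fell in wild-type cells. Casp8, the protease that c-FLIP blocks, fell by 0.56 in Mirc11-/- and by 0.41 in wild-type cells, Ripk3 by 0.77 and by 0.47, and Ripk1 by 0.45 and by 0.34, while the receptor gene Fas rose by 1.33 and 1.72. Of 9 tested superoxide and peroxide enzymes, 6 fell in Mirc11-/- and 1 fell in wild-type cells, none rose, and Prdx1, a peroxidase, fell by 0.79 and by 0.43. Sod1, the cytosolic dismutase, had estimates of 0.03 and 0.30, not called. For Icam1, the genes of its receptor LFA-1 fell: Itgb2 by 1.21 in Mirc11-/- and by 0.80 in wild-type cells, and Itgal by 0.64 and by 0.66.

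**Figure D4:**
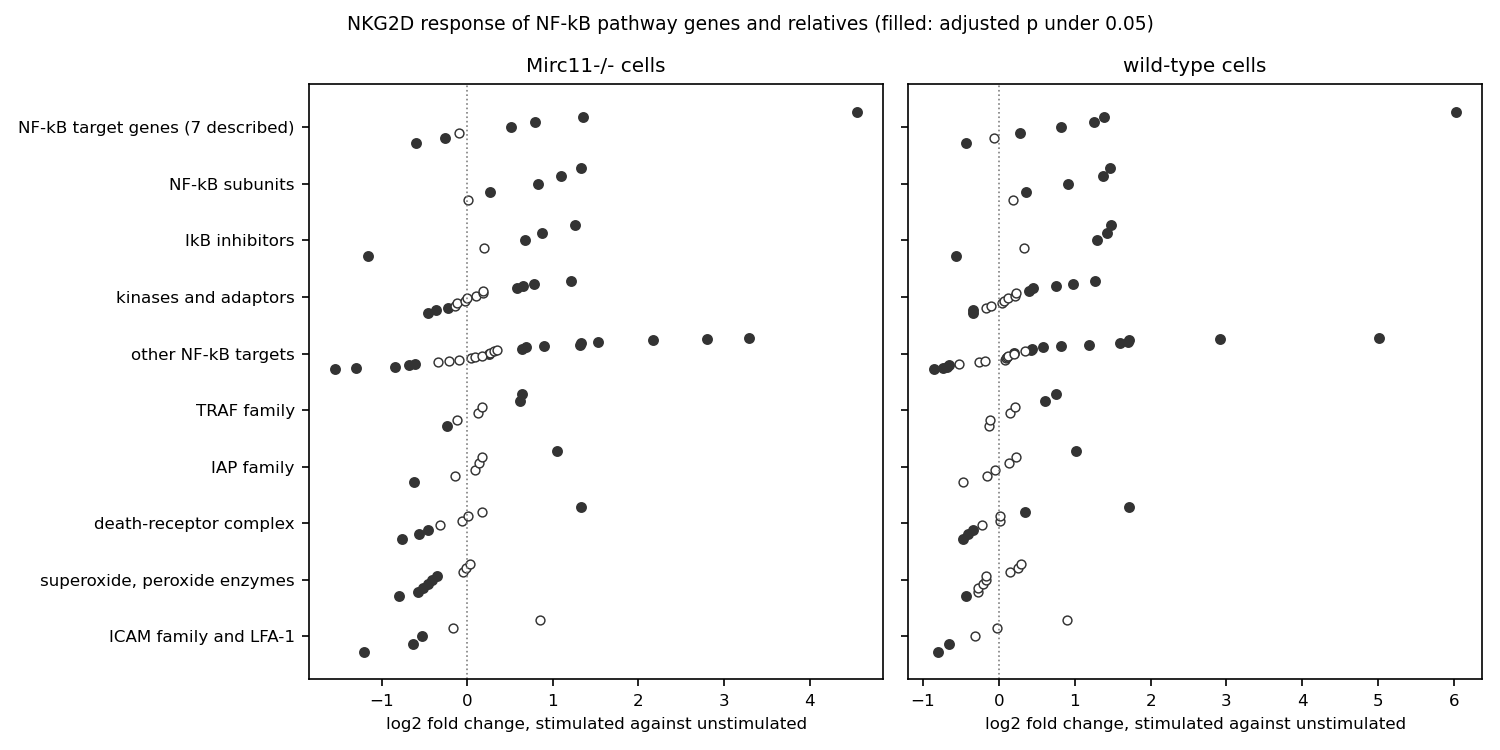
Log2 fold change of stimulated against unstimulated cells for each tested gene of the 7 described and of 9 pathway lists, in Mirc11-/- and wild-type cells; filled points have an adjusted p under 0.05. The NF-kB subunits lie at or right of 0, whereas the superoxide and peroxide enzymes lie mostly left of 0 in Mirc11-/- cells.

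Genes whose levels ran close to each member over the 12 libraries were found by Pearson correlation of log2 CPM, with candidates of mean log2 CPM of at least 2. These r values follow the 4 groups and carry no test. Traf1 ran like Gadd45b (0.988) and Zfyve1 (0.988), and Bcl3 like Nfkbid (0.955), Tnfsf4 (0.953) and Cdon (0.946). Icam1 ran like Tnfsf14 (0.984), Tnfsf4 (0.981) and Nfkbid (0.976), and Cd83 like Tnfsf14 (0.977) and Nfkb2 (0.975). Cflar ran like Lilrb4a (0.978), Cdkn1a (0.973) and Hmox1 (0.963), and Sod2 like Cul2 (0.995), Thyn1 (0.992) and Hspa4 (0.99). Birc3 had the loosest neighbours, Gdap10 (0.868), Zbtb43 (0.854) and Myo1g (0.853).

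MicroRNAs of the deleted cluster pair through their seed, bases 2 to 8, with 3' untranslated regions and as a rule lower the target. The 3 mature strands are given 5′ to 3′ from RefSeq on GRCm38.p6, with the seed in capitals. They are the sequences that the deleted genes encode. Levels of mature microRNA in Mirc11-/- cells were not measured here, so whether other genes still supply these sequences was not tested.
miR-23a-3p: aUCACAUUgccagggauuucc
miR-27a-3p: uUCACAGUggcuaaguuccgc
miR-24-3p: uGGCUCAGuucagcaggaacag
The miR-23a and miR-27a seeds share their first 5 bases and their last base but are not the same, so each has its own set of matches. For each gene the longest annotated 3' untranslated region of its protein-coding transcripts was searched, which need not be that of the main transcript. Matches to the seeds were found in 6 of the 7 genes. They were miR-23a in Traf1, Cflar and Sod2, miR-27a in Bcl3, Icam1 and Cflar, miR-24 in Birc3, Cflar and Sod2, and none in Cd83. Of 12800 tested genes with an annotated 3' untranslated region, 41.6% held a match to at least 1 seed, 17.05% to that of miR-23a, 18.2% to that of miR-27a and 19.47% to that of miR-24. The untranslated regions of Cflar and Sod2 are 4962 and 4963 bases long, where the median was 1224, and longer regions hold more matches. The windows below are those of Birc3 and Cflar, which were called lower in stimulated Mirc11-/- than in stimulated wild-type cells. Capitals mark the 7 bases that pair with the seed, and positions are GRCm38. The Birc3 match lies well inside the gene, whose annotated 3' end on the minus strand is at 7848699. Whether the main Birc3 transcript holds it, and which transcripts these cells express, was not tested.
Birc3, miR-24-3p match, chr9:7856959-7856985, minus strand: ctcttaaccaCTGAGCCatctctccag
Cflar, miR-27a-3p match, chr1:58755585-58755611, plus strand: aggcagaaagACTGTGAgagccagagg
Cflar, miR-23a-3p match, chr1:58755833-58755859, plus strand: aggcaggaacAATGTGAttcgtagctg
Cflar, miR-24-3p match, chr1:58755965-58755991, plus strand: actgttttccCTGAGCCtgcttcctca
Birc3 and Cflar are shown because they were called, not because of their matches. Traf1, Bcl3, Icam1 and Sod2 also hold matches and were not called between the stimulated genotypes. In unstimulated cells the differences were 0.03 for Birc3 and -0.17 for Cflar on the log2 scale, not called. Cd83, with no match, had the lowest estimate of the 7 in stimulated cells, which was not called (edgeR adjusted p = 0.0653). A seed match is a description of the sequence, and no relation between matches and differences was tested.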

How the data were processed

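RNA was extracted with Trizol and libraries made with Illumina TruSeq RNA, per the labels' protocols. The submitters' processing notes name bcl2fastq, Trim Galore 0.4.1, Bowtie2 2.2.8, RSEM 1.3.0 and GRCm38; the annotation release and strand setting are not given in the sources used here. The authors deposited 1 table of RSEM expected counts, estimated counts of reads per gene, not scaled between libraries and already whole numbers, so no further rounding was needed. After filterByExpr (by group) and TMM scaling, edgeR 4.0.16 under R 4.3.3 fitted a quasi-likelihood model (robust) with 1 mean per group over all 12 libraries. P-values are two-sided and adjusted by Benjamini-Hochberg over 17457 genes, with a threshold of 0.05; CPM uses the TMM-scaled total. The model was tested on simulated data. Alternatives used limma 3.58.1 and DESeq2 1.42.0, other scalings and filters, replicate blocks, a covariate, and leaving out each library. Named genes were the 7 members, up to 4 called genes per list with the smallest p, and 3 nearest genes per member, of which some are not reported here; Rela, Sod1, Ier3 and Bcl2l1 after stimulation were added after their values were seen. Gene positions and 3' untranslated regions came from GENCODE vM21, promoters and microRNAs from RefSeq. The members and lists were chosen with earlier results of these data known. Intervals on summed counts cover counting error only.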

Additional observations from a re-analysis of the deposited data

How the results depend on the processing

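Of 749 alternative values for the 7 genes in 5 comparisons, 718 kept their direction and side of the threshold, 17 lost and 6 gained a call, and 8 changed sign, none of the 8 called. Changes of sign in stimulated Mirc11-/- against wild-type cells were Bcl3 (0.0153 log2 with the vomeronasal covariate, 0.0464 without stimulated wild-type replicate 2, range -0.16 to 0.0464 with a library left out) and Sod2 (0.0449 with the covariate). In the difference between responses they were Sod2 (0.0915 with the covariate) and Cd83 (0.045 without unstimulated Mirc11-/- replicate 1, range -2.88 to 0.045). In unstimulated cells, Birc3 was at -0.00176 without wild-type replicate 3 (range -0.00176 to 0.0476), and Cd83 at -0.0215 without wild-type replicate 2 and -1.11 without Mirc11-/- replicate 1 (range -1.11 to 1.81). The 6 calls in Mirc11-/- cells under stimulation became 2 with the covariate, which itself moves with stimulation, and 5 to 6 with a library left out. The 2 calls between stimulated genotypes became 1 with no composition factor, 4 with no filter, 4 with DESeq2, 0 with the 6 libraries alone, 0 with the covariate, and 1 to 2 with a library left out. DESeq2 called 1 gene between unstimulated genotypes. Over all genes, calls between stimulated genotypes numbered 1575 as reported, 2366 with DESeq2, 208 with the 6 libraries alone, 30 with the covariate, and 348 to 2326 with a library left out. Between unstimulated genotypes they numbered 193, 382 with DESeq2, 299 with the 6 libraries alone, and 75 to 378 with a library left out. For the difference between responses they numbered 2, 47 with no filter, 68 with DESeq2, 13 with a replicate block within genotype, 0 with the covariate, and 0 to 19 with a library left out. Stimulation in Mirc11-/- cells gave 7958 calls, and 560 with the covariate. Without a filter the median over all genes was 0.77 for stimulation in Mirc11-/- cells and 0.17 in wild-type cells. Whether libraries of the same number belong together was looked at in log2 CPM with the group mean of each gene taken off. These deviations, not the levels themselves, correlated at -0.0651 to 0.141 between same-numbered stimulated and unstimulated Mirc11-/- libraries. In wild-type cells they correlated at 0.0935 to 0.226. Differently numbered libraries gave -0.195 to 0.123 in Mirc11-/- and -0.167 to 0.0266 in wild-type cells. Deviations from a mean of 3 sum to 0, so these r values depend on each other. Every wild-type library thus correlated best with its own number, a hint from the data only; the labels give no shared source and not every pair was over 0.1, so the numbers were not taken as pairs. A replicate block over all groups changed no call of the 7 genes and gave 2142 calls between stimulated genotypes and 3 for the difference between responses. The cause of these changes was not tested. Depth limits Cd83 most: its unstimulated libraries hold 0 to 4 counts.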
